A study of Rattus norvegicus with 8 samples.

Results

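Mitochondria hold their own ribosome, whose proteins are encoded in the nucleus and imported, and which makes a small set of respiratory chain subunits. The genes described here encode its large subunit proteins (Mrpl), its small subunit proteins (Mrps), and the translocases of the outer (Tomm) and inner (Timm) mitochondrial membranes through which nearly all other mitochondrial proteins enter. They were measured in dorsal root ganglia, which house the cell bodies of sensory neurons, of rats with a tied spinal nerve. The genes were those whose symbol in the array table starts with Mrpl, Mrps, Timm or Tomm followed by a digit. A gene with several probes took the probe with the highest mean intensity, so the choice used no difference between groups. The rule gave 79 genes on 109 probes, of 10713 genes with a tested probe. By their names, 38 belonged to the large ribosomal subunit, 24 to the small subunit, 10 to the TIM family and 7 to the TOM family.

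The ligation group held 4 samples of ipsilateral ganglia from Sprague Dawley rats, taken 7 days after spinal nerve ligation, the Chung model of neuropathic pain. The control group held 4 samples from the same strain, which the labels call contralateral in the titles and sham-operated in the descriptions. Body side and operation cannot be told apart in this design. Each sample was a pool of 2 animals, and the labels give neither sex nor age. Every sample was labelled with Cy5 and hybridised on its own array against a common pool of control ganglia labelled with Cy3, with no dye swap. Values are log2 ratios of the sample to this control pool, and a change is the mean ratio of the ligation arrays minus that of the control arrays.

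The arrays of the 2 groups differed in spread over all genes. Over spots, log2 ratios had a standard deviation of 0.589 to 0.632 on the ligation arrays, against 0.184 to 0.226 on the control arrays, and the median ratio was 0 on all 8. Sample intensities had a median of 0.21 to 0.22 on the ligation arrays and 0.17 to 0.20 on the control arrays, on a relative scale whose highest sample value was 21.56 to 27.42. Over all probes, 13105 of 22379 (58.6%) passed the test between the groups, 7208 lower (32.2%) and 5897 higher (26.4%). Of the probes that passed, 1809 changed by at least 2-fold, which is 8.08% of all probes. Precision is limited by the 4 arrays per group.

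Most of the 79 genes were lower in ligation ganglia, by small amounts. At an adjusted p under 0.05 in limma, taken over all 22379 probes, 60 fell (75.9%), 2 rose (2.5%) and 17 did not pass. With 1 probe per gene, the background over all genes was 36% lower and 30.3% higher. Among the 3309 genes whose mean intensity lay between the lower and upper quartile of these genes, 0.393 and 2.094, it was 41.5% lower and 36.6% higher. The median change of the 79 genes was -0.25 on the log2 scale, so that the level decreased by 15.7% at the median. Over all genes the median change was -0.05. None of the 79 genes changed by 2-fold, whereas 11.2% of all genes both passed the test and changed by at least 2-fold. The changes ran between -0.75 for Tomm34 and 0.53 for Mrpl23, with a median standard error of 0.0396.

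Because the reference was a pool of control ganglia, a difference between the groups shows on the ligation arrays by design. On ligation arrays 1 to 4 the median log2 ratio of the 79 genes was -0.27, -0.31, -0.33 and -0.26, against -0.06, -0.02, -0.08 and -0.05 on the control arrays. On all 4 ligation arrays, 72 of the genes were below the control pool, a count for which no share over all genes is given. Some of them, such as Timm10 and Timm17a, were below the pool on all 4 control arrays too. All 4 ligation ratios lay below all 4 control ratios for 61 genes and above them for 2, where 33.8% of all genes with 8 values lay below and 28.9% above.

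The count of falls rested on the spread of the ratios being left as deposited. When the ratios were made equally wide on every array, by quantile normalization, 9 of the 79 genes were lower and 9 higher, with a median of -0.01. Over all genes, 17.6% were lower and 17.5% higher in that setting. When each array was scaled by its median absolute log2 ratio, 7 were lower and 6 higher, and the median was 0.0011, beside 15.9% lower and 13.3% higher over all genes. The share of the 79 genes called lower was below the background in both settings. That median absolute ratio was 0.242 to 0.280 on the ligation arrays and 0.041 to 0.051 on the control arrays. Both settings therefore enlarge the control ratios and shrink the ligation ratios by construction. Scale normalization also put all 8 skeletal muscle markers higher, with a median change of 7.95. As deposited, 1 of these markers was lower and 1 higher, with a median change of -0.21, and their median ratios lay far below 0 in both groups. Under quantile normalization 5 of the 8 were higher, with a median change of 0.82. Tomm34, Tomm40b, Mrpl2 and Mrpl38 were lower and Timm17b was higher, past the threshold, under both of these settings too.

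**Figure D1:**
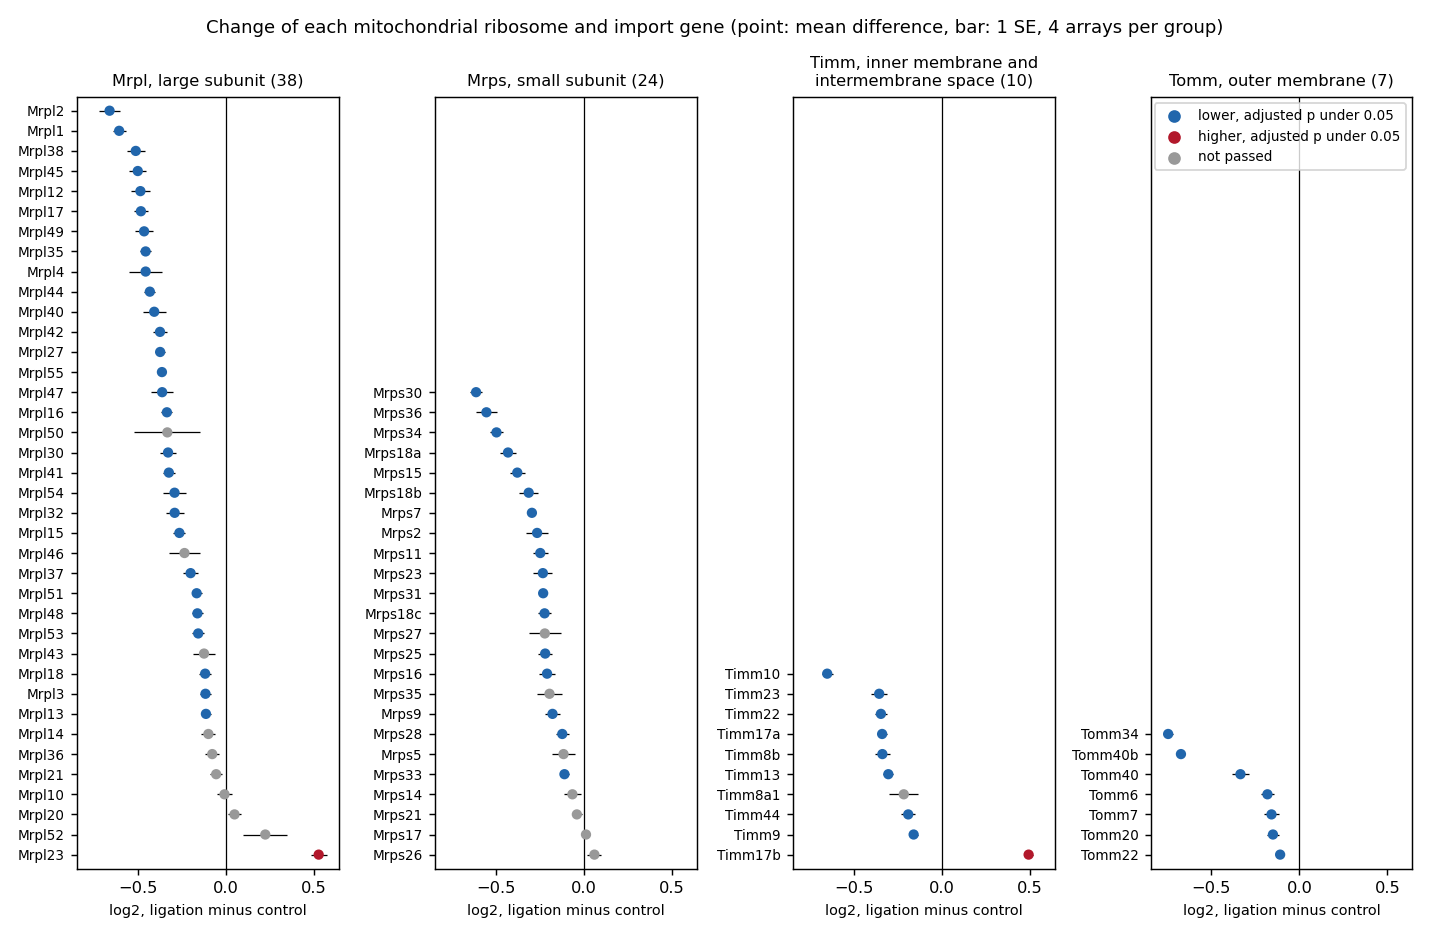
Change of each of the 79 genes (log2, ligation minus control, horizontal axis) by family, with 1 standard error as a bar over 4 arrays per group and the colour giving the call at an adjusted p of 0.05. The points of 60 genes are called lower and those of Mrpl23 and Timm17b higher. Under quantile or scale normalization 9 or 7 genes are lower.

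Of the 10 TIM genes 8 fell, Timm17b rose and Timm8a1 did not pass, with a median change of -0.32. Under quantile normalization 1 was lower and under scale normalization 0. The largest fall was that of Timm10, one of the small chaperones that carry hydrophobic precursors across the intermembrane space. Its log2 ratios were -0.68, -0.80, -0.76 and -0.72 on the ligation arrays, against -0.12, -0.05, -0.09 and -0.11 on the control arrays. The groups lay far apart, and the change was -0.65 ± 0.032 (SE, n = 4 each), with a limma adjusted p of 3.58e-06. A dimmer probe given the same symbol went the other way, at 0.41 ± 0.034 (SE) with an adjusted p of 3.7e-05. On that probe the ratios were 0.38 to 0.47 on the ligation arrays and -0.06 to 0.08 on the control arrays. The direction of Timm10 is therefore uncertain on these arrays.

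Of the other small chaperones, 3 fell. Timm9, which forms a complex with Timm10, changed by -0.16 ± 0.025 (limma adjusted p = 0.00104). Timm13 and Timm8b, which form the sister complex, changed by -0.30 ± 0.028 and -0.34 ± 0.044, with limma adjusted p-values of 6.6e-05 and 0.000407. Timm9 and Timm8b turned above 0 under quantile and scale normalization, none of them past the test. In the sample channel alone Timm8b was at -0.16 and did not pass (limma adjusted p = 0.162). For Timm8a1, the counterpart of the human gene mutated in deafness-dystonia syndrome, the ratios were -0.20, -0.40, -0.33 and -0.02 on the ligation arrays, against 0.04, -0.02, -0.08 and -0.04 on the control arrays. Ligation array 4 lay within the range of the controls, and the change of -0.21 ± 0.083 had a limma adjusted p of 0.0588. Without that array the adjusted p was 0.00454. A dimmer probe of Timm8a1 was lower with all 8 arrays, at -0.23 ± 0.038 (limma adjusted p = 0.00131).

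Timm17a and Timm17b encode alternative forms of the same channel component of the presequence translocase, and they moved in opposite directions. Timm17a had ratios of -0.34, -0.41, -0.43 and -0.33 on the ligation arrays, against -0.06, -0.04, -0.05 and -0.02 on the control arrays. Timm17b had 0.47, 0.48, 0.50 and 0.41 on the ligation arrays, against -0.04, -0.04, -0.04 and 0.00 on the control arrays. Timm17a was below and Timm17b above its controls on every array. The change was -0.34 ± 0.029 for Timm17a and 0.49 ± 0.025 for Timm17b, with limma adjusted p-values of 4.55e-05 and 3.74e-06. The fall of Timm17a did not pass under quantile normalization (-0.04, adjusted p = 0.442), and the rise of Timm17b did (0.42, adjusted p = 0.000805).

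Timm23, the channel partner of the Timm17 proteins, changed by -0.35 ± 0.047, with ratios of -0.46 to -0.40 on the ligation arrays and -0.16 to 0.05 on the control arrays. RefSeq lists 8 pseudogenes of Timm23, whose transcripts this probe could share. Timm44, which holds the matrix motor at the channel, changed by -0.19 ± 0.040 (limma adjusted p = 0.00481). Timm22, the pore for carrier proteins, changed by -0.34 ± 0.034 (limma adjusted p = 8.72e-05). Timm22 had a sign above 0 under both quantile and scale normalization and Timm23 under scale normalization, none of them past the test.

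All 7 genes named Tomm fell, with a median change of -0.18, and 2 were lower under both quantile and scale normalization. Tomm34 is a cytosolic partner of chaperones and not part of the membrane complex. It had ratios of -0.68, -0.76, -0.76 and -0.73 on the ligation arrays, against 0.02, -0.04, 0.02 and 0.04 on the control arrays. This was the lowest of the 79 changes, at -0.75 ± 0.030, a level 1.68-fold lower with a limma adjusted p of 1.44e-06. Tomm40b, now named Tomm40l, is a paralogue of the pore protein. Its ratios were -0.60, -0.63, -0.68 and -0.65 on the ligation arrays, against 0.01, 0.04, 0.05 and 0.04 on the control arrays, and it fell 1.59-fold (-0.67 ± 0.024, limma adjusted p = 9.14e-07).

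The core of the outer membrane complex changed less than these. Tomm40, the pore itself, changed by -0.34 ± 0.050 with a limma adjusted p of 0.000759. Its mean sample intensity was 0.0975 in ligation and 0.105 in control ganglia, where the 2 printed decimals allow a change anywhere between -0.61 and -0.06. Tomm20, a receptor for presequences, had ratios of -0.26 to -0.17 on the ligation arrays and -0.10 to -0.0029 on the control arrays, and changed by -0.15 ± 0.033 (limma adjusted p = 0.00541). Tomm22, the central receptor, changed by -0.11 ± 0.022 (limma adjusted p = 0.00345). Tomm6 and Tomm7, small subunits of the complex, were also lower. The calls of Tomm6, Tomm20 and Tomm22 were lost after loess correction within arrays. Both Tomm20 and Tomm22 turned above 0 under quantile and scale normalization, none of them past the test. In the sample channel alone Tomm22 was at 0.17 and Tomm20 at -0.04, with limma adjusted p-values of 0.431 and 0.7425.

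**Figure D2:**
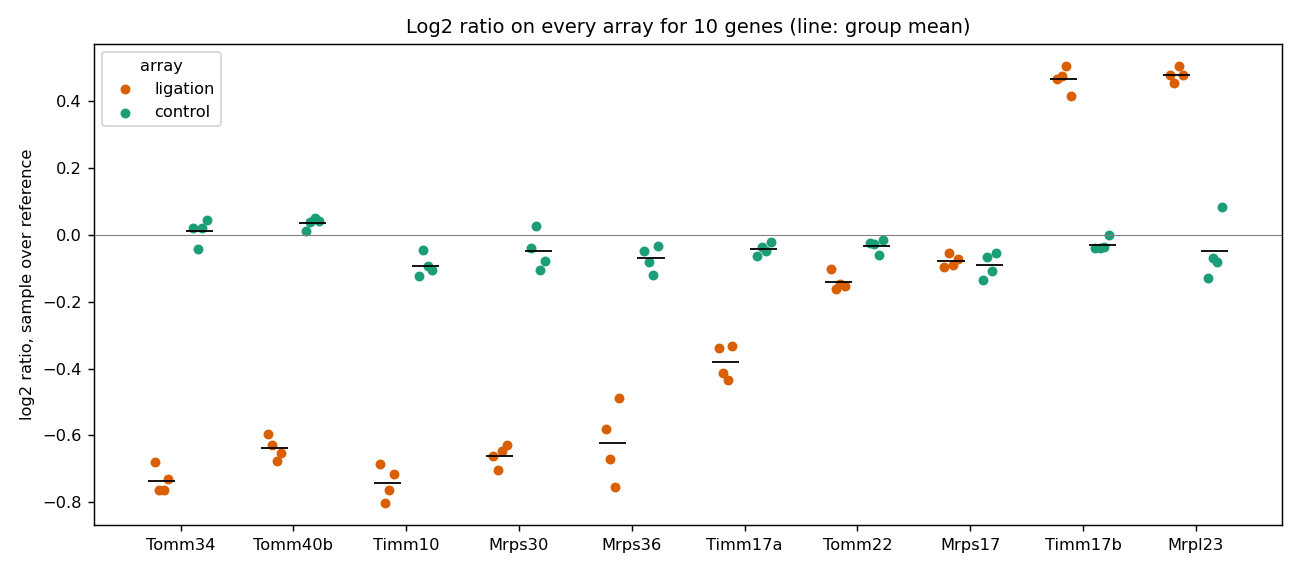
Log2 ratio of sample to control pool (vertical axis) on each of the 8 arrays for 10 genes, ligation arrays left of control arrays, with a line at each group mean. Ligation points lie below all control points for Tomm34, Tomm40b, Timm10, Mrps30, Mrps36, Timm17a and Tomm22, above them for Timm17b and Mrpl23, and among them for Mrps17. The low position of Tomm22 turns round under quantile and scale normalization.

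In the large ribosomal subunit 28 of 38 genes fell, 1 rose and 9 did not pass, and the median change was -0.31, a level decreased by 19.2%. Under quantile and scale normalization 5 and 4 of the 38 were lower. The largest fall was that of Mrpl2, a core protein near the catalytic centre. It had ratios of -0.74, -0.58, -0.51 and -0.65 on the ligation arrays, against 0.00, 0.15, 0.00 and 0.00 on the control arrays. The groups did not overlap and the change was -0.66 ± 0.058 (limma adjusted p = 4.96e-05). The probe was dim, with a mean sample intensity of 0.065 in ligation and 0.080 in control ganglia, so that rounding alone allows -1.03 to -0.29. Mrpl1, a stalk protein, and Mrpl38 changed by -0.61 ± 0.036 and -0.51 ± 0.050, with limma adjusted p-values of 7.83e-06 and 8.55e-05. Their probes were nearly as dim, with mean sample intensities of 0.1075 and 0.125 in ligation and 0.1375 and 0.1575 in control ganglia. Rounding alone allows -0.82 to -0.395 for Mrpl1 and -0.70 to -0.32 for Mrpl38.

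Mrpl12 and Mrpl10 form the stalk that recruits translation factors. Mrpl12 had ratios of -0.43, -0.53, -0.42 and -0.38 on the ligation arrays, against -0.03, -0.05, 0.15 and 0.10 on the control arrays. It changed by -0.48 ± 0.056, with a limma adjusted p of 0.000209. Mrpl10 had the smallest change of the 79, -0.0071 ± 0.042, with a limma adjusted p of 0.910. Its ratios were -0.07 to 0.00 on the ligation arrays and -0.08 to 0.08 on the control arrays, so the groups overlapped. The difference between the changes of Mrpl10 and Mrpl12 was not tested.

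Mrpl23, a protein at the exit of the ribosomal tunnel, was the one large subunit gene to rise. Its ratios were 0.48, 0.45, 0.51 and 0.48 on the ligation arrays, against -0.13, -0.07, -0.08 and 0.08 on the control arrays. No array overlapped, and the change was 0.53 ± 0.046, a level 1.44-fold higher with a limma adjusted p of 4.99e-05. Under scale normalization the value was 0.47 with an adjusted p of 0.0600. The 9 large subunit genes that did not pass were Mrpl10, Mrpl14, Mrpl20, Mrpl21, Mrpl36, Mrpl43, Mrpl46, Mrpl50 and Mrpl52. Mrpl46, named here after its value was seen, lay closest to the threshold at -0.23 ± 0.086 with a limma adjusted p of 0.0505.

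In the small ribosomal subunit 17 of 24 genes fell, none rose and 7 did not pass, with a median change of -0.22. Under both quantile and scale normalization 1 was lower. The 2 largest falls belonged to proteins whose names do not match their present assignment. Mrps30, which sits in the large subunit in spite of its name, had ratios of -0.66, -0.70, -0.65 and -0.63 on the ligation arrays, against -0.04, 0.02, -0.10 and -0.08 on the control arrays. It fell 1.53-fold (-0.61 ± 0.034, limma adjusted p = 5.38e-06). Mrps36, renamed Kgd4 and now assigned to the alpha-ketoglutarate dehydrogenase complex, had ratios of -0.58, -0.67, -0.75 and -0.49 on the ligation arrays, against -0.05, -0.08, -0.12 and -0.03 on the control arrays. The groups lay apart, and the change was -0.55 ± 0.058 (limma adjusted p = 0.000118).

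Mrps18a and Mrps18b are related proteins, of which Mrps18a also sits in the large subunit. They changed by -0.43 ± 0.046 and -0.31 ± 0.056, with limma adjusted p-values of 0.000131 and 0.002. In the sample channel alone Mrps18a was at -0.15 and did not pass (limma adjusted p = 0.487). Its mean sample intensity was 0.44 in ligation and 0.4275 in control ganglia. Mrps7, a protein of the head of the small subunit, had ratios of -0.29, -0.33, -0.35 and -0.36 on the ligation arrays, against 0.0042, -0.06, -0.06 and -0.05 on the control arrays. It changed by -0.29 ± 0.025 (limma adjusted p = 4.27e-05). Mrps21 and Mrps17 were among the 3 genes with the smallest change, at -0.04 ± 0.027 and 0.01 ± 0.025, with limma adjusted p-values of 0.258 and 0.672. Both were above 0 and past the threshold under quantile normalization, at 0.14 and 0.25. The other small subunit genes that did not pass were Mrps5, Mrps14, Mrps26, Mrps27 and Mrps35.

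A second reading came from the probes that the rule did not use. For 26 of the genes the table held 30 other probes, of which 19 were lower, 3 higher and 8 did not pass. The sign was that of the brightest probe for 28 of 30. The 3 higher probes belonged to Timm10, to Mrpl52 (0.38 ± 0.037) and to Mrpl14 (0.19 ± 0.060). For Mrpl52 the brightest probe did not pass, at 0.22 with an adjusted p of 0.163, and for Mrpl14 it was at -0.10 with an adjusted p of 0.0643. In 4 genes another probe was lower where the brightest did not pass. They were Mrps27 (-0.59 ± 0.122, beside -0.22), Mrpl50 (-0.29 ± 0.051, beside -0.33), Timm8a1 and Mrpl43 (-0.13 ± 0.049, beside -0.12). A further probe of Mrpl50, at -0.31 ± 0.19, did not pass. In 6 genes, Mrpl17, Mrpl37, Mrpl48, Mrps2, Mrps18b and Tomm6, the brightest probe was lower and another did not pass. Of these, Mrpl17 was at -0.48 on the brightest probe and -0.02 ± 0.079 on the other (adjusted p = 0.854). Mrpl48 also had brighter other probes at -0.39 ± 0.050 and -0.37 ± 0.061, both lower past the test. These genes were chosen after their values were seen. Probes of 1 gene share its RNA and are no replicates. Averaging all probes of a gene gave 61 lower and 3 higher genes, and no share over all genes is given for this setting.

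**Figure D3:**
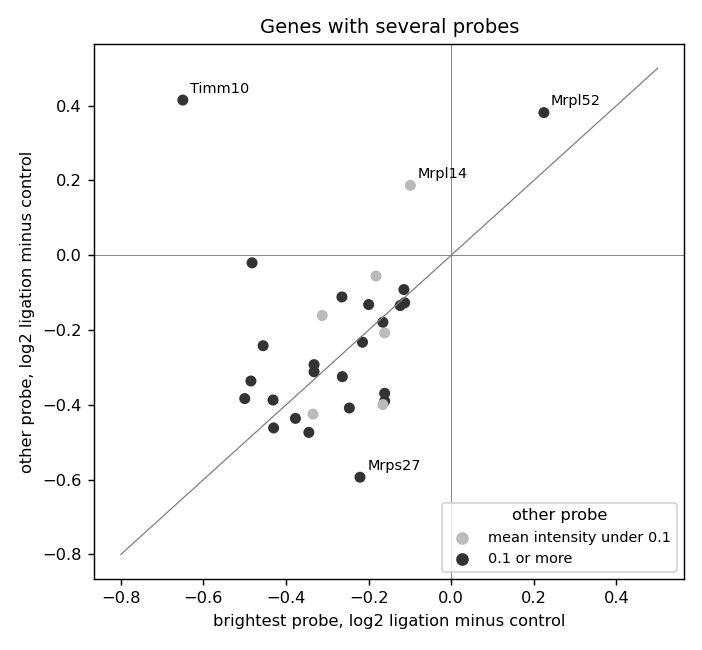
Change of the other probe (log2, ligation minus control, vertical axis) against the change of the brightest probe (horizontal axis) for the 26 genes with several probes, 30 points in all, with the line of equality. Of the points, 28 have the same sign on both axes, and Timm10 is the one pair called in opposite directions.

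The table held 7 more members of these families under another name, an old identifier or a lower-case spelling. Mrpl11, listed as mrpl11, was at -0.67 ± 0.074, past the test, on a probe with a mean intensity of 0.0675 in ligation and 0.102 in control ganglia and rounding bounds of -0.996 to -0.352. Mrpl57 (-0.15), Timm10b (-0.32), Timm21 (-0.39) and Timm29 (-0.58) were lower too. Mrpl58 (-0.35, adjusted p = 0.124) and Mrpl9 (0.04, adjusted p = 0.219) did not pass. None of the 7 was higher past the test.

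The genes that work with the mitochondrial ribosome were counted next, from lists chosen by function. Among translation factors 3 of 4 fell and none rose, with a median of -0.42. They were the ribosome recycling factor Mrrf (-0.57 ± 0.04), the elongation factor Gfm1 (-0.52 ± 0.05) and Tufm. Guf1 was at 0.09 ± 0.05 and did not pass. Among mitochondrial tRNA synthetases 10 of 13 fell and none rose, with a median of -0.36. Cars2 changed by -0.61 ± 0.02 and Fars2 by -0.58 ± 0.04, while Vars2 was at -0.01 ± 0.09. Under quantile normalization 1 of 4 translation factors and 6 of 13 synthetases were lower, and the medians stayed below 0.

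Import partners gave 12 lower and none higher of 17, with a median of -0.23. Pmpca, a subunit of the protease that removes presequences, changed by -0.66 ± 0.03, and the matrix chaperone Hspd1 by -0.51 ± 0.03. Dnajc19, a motor subunit, was at -0.04 ± 0.04 and did not pass. Under quantile normalization 3 of the 17 were lower with a median of -0.04, and under scale normalization 3 with a median of 0.0025. Genes that mark mitochondrial content gave 9 lower and none higher of 14, with a median of -0.30. Of these, Phb1, a prohibitin, changed by -0.47 ± 0.03, Vdac1, an outer membrane channel, by -0.47 ± 0.04, and the fusion protein Opa1 was at -0.04 ± 0.04. Quantile normalization left 4 of these 14 lower.

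Genes that copy and read mitochondrial DNA moved in both directions, with 10 lower and 3 higher of 16 and a median of -0.23. The RNA polymerase Polrmt changed by -0.35 ± 0.03 and the helicase Twnk by -0.34 ± 0.03, while the termination factor Mterf1 was at -0.02 ± 0.04. The 3 that rose, named after their values were seen, were the packaging factor Tfam at 0.36 ± 0.04, the polymerase subunit Polg2 at 1.02 ± 0.10 and Mtpap, the poly(A) polymerase, at 0.17 ± 0.03. Of 8 nuclear regulators of mitochondrial genes, 4 fell and 3 rose. Nrf1 changed by -0.76 ± 0.04 and Myc by 0.94 ± 0.05, with limma adjusted p-values of 3.7e-06 and 5.3e-06, and Pprc1 was at 0.10 ± 0.10. The other calls, also named after their values were seen, were lower for Esrra (-0.57), Ppargc1a (-0.29) and Yy1 (-0.19), and higher for Gabpa (0.45) and Gabpb1 (0.45). The probe of Ppargc1a was dim, with a mean sample intensity of 0.065 in ligation and 0.048 in control ganglia. With only 2 printed decimals its call is uncertain, and rounding bounds are not given for it. Polg2 and Myc were dim in control ganglia, at 0.092 and 0.087, against 0.268 and 0.217 in ligation ganglia. The sizes of their rises are therefore imprecise, and rounding bounds are not given for them either. Quantile normalization left 5 lower and 3 higher of the 16 genes and 2 lower and 2 higher of the 8 regulators.

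Of 6 mitoribosomal proteins that carry unrelated symbols, 2 fell and none rose, with a median of -0.09. They were Gadd45gip1 (-0.43 ± 0.06) and Mrpl57, and Aurkaip1 was at 0.00 ± 0.05. Under quantile and scale normalization the median of these 6 was above 0, at 0.12 and 0.11, with 0 lower and 1 higher in each.

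The 2 families most like these genes in function lay on either side of them. Of 71 respiratory chain and ATP synthase genes, which include partners of the mitochondrially made subunits, 61 fell and 1 rose, with a median of -0.44. Ndufs3 and Ndufa9, subunits of complex I, changed by -0.74 ± 0.03 and -0.50 ± 0.02, and the smallest change was that of the dim probe of Cox4i2, at 0.00 ± 0.14. Of 71 proteins of the cytosolic ribosome, 3 fell and 58 rose, with a median of 0.58. Rpl31 changed by 0.84 ± 0.02 and Rps12 by 0.98 ± 0.03, and Rps20 was at 0.05 ± 0.16. On ligation arrays 1 to 4 the cytosolic ribosomal median was 0.49, 0.52, 0.57 and 0.58, against -0.06, -0.07, -0.12 and -0.05 on the control arrays. Under quantile normalization 10 respiratory genes were lower and 4 higher, and 0 cytosolic ribosomal genes were lower and 55 higher. Under scale normalization these counts were 8 and 3, and 0 and 50. The differences between the families were not tested.

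**Figure D4:**
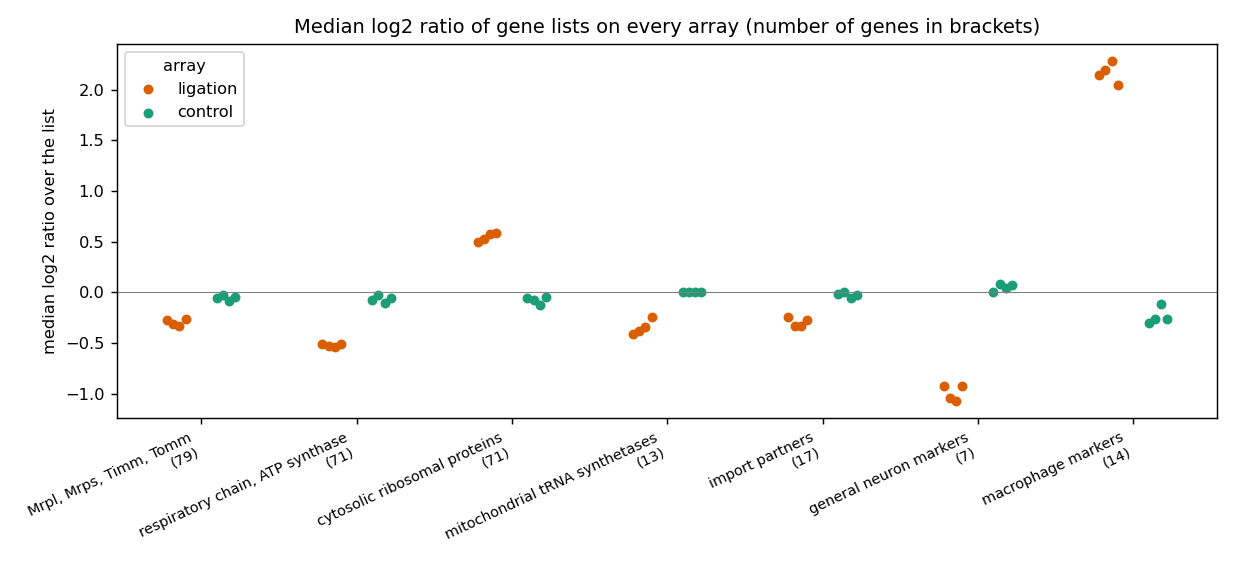
Median log2 ratio (vertical axis) of 7 gene lists on each array, ligation arrays left of control arrays. The 79 genes lie at -0.33 to -0.26 on the ligation arrays and -0.08 to -0.02 on the control arrays, between the respiratory chain below and the cytosolic ribosomal proteins above, with neuron markers near -1 and macrophage markers above 2 on the ligation arrays. Quantile and scale normalization bring the median of the 79 genes close to 0.

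The cell types in the ganglia moved at the same time. Ganglion samples mix neurons with glia, connective tissue, vessels and immune cells, and in such bulk RNA fewer cells of a type and less RNA per cell cannot be told apart. Of 13 listed general neuron markers 7 were measured, none of them at an intensity of 0, and 6 were lower. Their median log2 ratio was -1.07 to -0.93 on the ligation arrays and 0.00 to 0.08 on the control arrays. Syt1 changed by -1.61 ± 0.06 and Isl1 by -1.28 ± 0.05, and Tubb3 was at 0.01 ± 0.08. Of 14 macrophage markers 12 were higher and none lower, with a median of 2.04 to 2.28 on the ligation arrays and -0.31 to -0.12 on the control arrays. C1qb changed by 2.67 ± 0.05 and Trem2 by 3.34 ± 0.08, and Cd163 was at -0.08 ± 0.08.

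All 6 fibroblast markers, all 6 T cell markers and 8 of 9 cell cycle genes were higher. Of 5 endothelial markers 3 were higher, of 8 satellite glia markers 3 were lower and 2 higher, and of 7 Schwann cell markers 2 were lower and 3 higher. Skeletal muscle markers had a median ratio of -2.78 to -2.55 on the ligation arrays and -3.04 to -2.35 on the control arrays, so the control pool was brighter for muscle genes than the samples of either group. Under quantile normalization 5 neuron markers were lower and 12 macrophage markers higher, and under scale normalization 3 and 12. The part of these cell types in the changes of the mitochondrial genes was not tested.

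The promoters of the genes are shown for Tomm40b, which had a large fall, for Timm10, whose probes disagreed, for Mrps18b, which holds several motifs, and for both genes that rose. RefSeq gave a promoter window, 250 bases before to 50 after the annotated start on the GRCr8 assembly, for 68 of the 79 genes. Each is printed from 5′ to 3′ along the gene's strand, in lower case with the searched motifs in capitals. The motifs, searched on both strands, were an NRF1 core (GCATGCGC), an ETS core (CCGGAAG, bound by the GABP factors), a YY1 core (AAGATGGC) and an SP1 GC box (GGGGCGGGG). The NRF1 core can overlap itself on the opposite strand.
Tomm40b, chr13:86174072-86174371, minus strand: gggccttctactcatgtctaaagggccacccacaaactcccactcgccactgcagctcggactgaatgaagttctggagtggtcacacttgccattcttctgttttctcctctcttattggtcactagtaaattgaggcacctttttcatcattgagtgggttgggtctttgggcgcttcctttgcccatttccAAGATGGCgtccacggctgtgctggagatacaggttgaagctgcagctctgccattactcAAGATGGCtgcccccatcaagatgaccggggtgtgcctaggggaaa
Timm10, chr3:90314889-90315188, plus strand: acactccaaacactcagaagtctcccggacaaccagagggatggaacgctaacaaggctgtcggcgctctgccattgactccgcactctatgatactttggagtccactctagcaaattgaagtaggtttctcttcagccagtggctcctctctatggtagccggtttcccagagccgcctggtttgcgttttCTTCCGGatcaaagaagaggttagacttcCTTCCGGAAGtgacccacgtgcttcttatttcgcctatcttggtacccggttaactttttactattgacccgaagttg
Mrps18b, chr20:2842756-2843055, plus strand: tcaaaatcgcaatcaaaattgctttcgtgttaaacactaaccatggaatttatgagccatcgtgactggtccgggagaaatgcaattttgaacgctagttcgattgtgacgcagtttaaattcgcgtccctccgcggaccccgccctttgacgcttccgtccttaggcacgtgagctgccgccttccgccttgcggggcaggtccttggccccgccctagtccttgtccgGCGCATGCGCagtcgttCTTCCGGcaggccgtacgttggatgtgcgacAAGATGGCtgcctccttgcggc
Timm17b, chrX:17275291-17275590, minus strand: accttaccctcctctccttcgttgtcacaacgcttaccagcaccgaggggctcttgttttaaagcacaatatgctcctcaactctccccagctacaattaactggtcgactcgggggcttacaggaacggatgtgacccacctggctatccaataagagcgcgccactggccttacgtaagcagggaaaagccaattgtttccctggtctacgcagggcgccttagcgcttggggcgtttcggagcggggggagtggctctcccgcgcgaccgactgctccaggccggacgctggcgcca
Mrpl23, chr1:207116680-207116979, plus strand: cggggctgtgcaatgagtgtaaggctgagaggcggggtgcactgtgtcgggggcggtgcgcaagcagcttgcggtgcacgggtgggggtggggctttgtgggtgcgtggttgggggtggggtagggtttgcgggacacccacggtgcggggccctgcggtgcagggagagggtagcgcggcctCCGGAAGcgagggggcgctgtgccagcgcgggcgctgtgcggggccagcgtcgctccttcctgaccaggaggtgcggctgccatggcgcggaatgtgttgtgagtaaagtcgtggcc

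The Tomm40b window holds the YY1 core on both sides of the start. The Timm10 window holds the ETS core, and the Mrps18b window holds the NRF1, ETS and YY1 cores close to the start. Of the genes that rose, Mrpl23 has an ETS core and Timm17b none of the 4 motifs. Over the 68 windows the ETS core was found in 22 (32.4%), beside 16% of 8526 genes on the array and 11.2% of 18999 protein-coding promoters. The YY1 core was in 14 (20.6%), beside 5.3% and 3.9%, and the NRF1 core in 5 (7.4%), beside 4.6% and 3.2%. The SP1 box was in 9 (13.2%), beside 19.3% and 13.3%. At least 1 of the NRF1, ETS and YY1 cores stood in 34 windows (50%), beside 45.2% of respiratory chain, 39.0% of cytosolic ribosomal and 23.3% of array genes. The 52 windows of genes that fell held the YY1 core in 19.2% and the ETS core in 28.8%. The YY1 core was in 22.6% of the respiratory chain and 5.1% of the cytosolic ribosomal windows, and the ETS core in 27.4% and 28.8%, so the respiratory chain windows held both at shares near those of the mitochondrial ribosome and import genes. A match describes the letters in the window and not binding.

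Mrps11 and Mrpl46 lie head to head, with overlapping windows at chr1:142117014-142117313 (plus strand) and chr1:142116981-142117280 (minus strand). Mrps11 changed by -0.25 ± 0.044 (limma adjusted p = 0.00199) and Mrpl46 by -0.23 ± 0.086, which did not pass.

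Dim probes and settings set the remaining limits. The mean sample intensity was under 0.1 in both groups for Mrpl2, Mrpl40 and Mrpl54, and in the ligation group for Tomm40. With only 2 printed decimals, the bounds were -0.80 to -0.02 for Mrpl40 and -0.78 to 0.19 for Mrpl54, which is the one called gene whose bounds include 0. RefSeq lists a pseudogene for 25 of the 79 genes, whose RNA a probe could share. In the sample channel alone, without the control pool, 44 genes were lower and 2 higher, with a median of -0.28. No share over all genes is given for this setting. Of the genes that fell in the ratios, 41 were still lower, 15 lost the call and 4 turned above 0, none past the test. The other 3 lower genes, Mrpl21, Mrps35 and Mrps5, had not passed in the ratios.

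**Figure D5:**
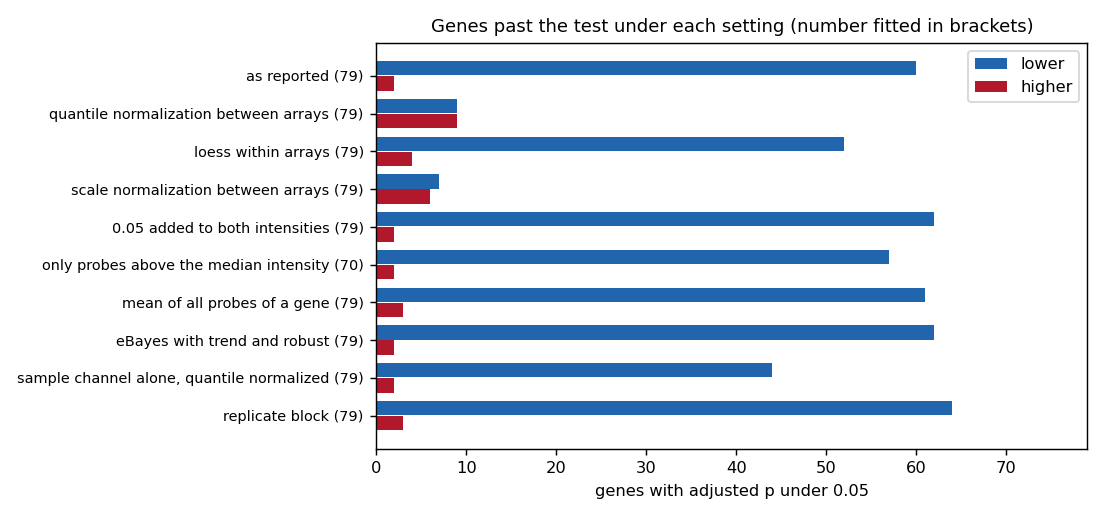
Number of the 79 genes lower and higher at an adjusted p under 0.05 (horizontal axis) under each processing setting, with the number of genes fitted in brackets. The count of lower genes is 60 as reported, 44 to 64 under 7 of the alternatives, and 9 and 7 under quantile and scale normalization between arrays. No share over all genes is given for those 7 alternatives.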

How the data were processed

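Two-colour Agilent arrays of 8 ganglion samples were analysed, 4 per group, made from 100 ng of RNA amplified over 2 rounds, per the labels' protocols. The submitters' processing notes name Agilent Feature Extraction 8.5.1.1 for quantification. Neither background correction, normalization nor a genome build is given in the sources used here. One deposited table holds a linear intensity per channel, per the file headers, on a relative scale printed with 2 decimals. It also holds the authors' p-value of each array's ratio, which entered no comparison. A second deposited table holds log10 values, equal to the log10 of sample over control pool within 0.005. All value columns were matched to samples by name, and 0 were left unmapped.

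The log2 ratio of sample to control pool was computed from the intensities without further scaling, and the 23557 spots were averaged to 22491 probes. A probe needed values on 2 arrays per group, which left out 112. Ligation and control were compared with a two-sided test by lmFit and eBayes (limma 3.58.1, R 4.3.3), with Benjamini-Hochberg adjustment over 22379 probes and a threshold of 0.05. The procedure was tested on simulated data. Gene symbols of 77 of the 79 genes matched RefSeq directly and 2 by a synonym. Tables were handled in pandas 2.3.3 and numpy 2.4.6 under Python 3.11.15, and figures drawn with matplotlib 3.10.9.

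The genes and lists were chosen with earlier results of these data known. Values are given for the 8 largest falls, all rises among the called genes, the 3 smallest changes and a list of genes by role. Timm50, Tomm70 and Mrps12 are not analysed here. From each list, up to 2 called genes of lowest adjusted p and the 1 gene nearest to no change were named, and others are marked in the text. The other cell type lists are given by counts alone. The alternatives were quantile, loess and scale normalization, 0.05 added to both intensities, a filter on dim probes, the mean of all probes of a gene, another variance model, the sample channel alone, the replicate number as a block, and leaving out each sample. The labels call the samples biological replicates, each pooled from 2 animals.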

Additional observations from a re-analysis of the deposited data

Results flagged for a closer look

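Single arrays that stood apart from the other 3 of their group were looked for among 58 groups of 4 arrays, by whether the gap to the nearest array, over the whole range, passed Dixon's critical value. Chance gives such a gap in about 1 of 20 groups where values are continuous, and 7 were found. The gaps of Tomm40, Mrpl2, Mrpl38, Mrpl10 and Timm17b rest on steps of 0.01 in the printed intensities. That rate does not hold for them. Tomm40 had a ligation array at -0.41 with the nearest at -0.26, and a control array at 0.14 with the other 3 at 0. In the control group, Mrpl2 had an array at 0.15 and Mrpl38 one at 0.0931, each with the other 3 at 0. Mrpl10 had a control array at 0.078 with the nearest at -0.07, Timm17b one at 0.0 with the nearest at -0.04, and Mrps7 one at 0.0042 with the nearest at -0.05.

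The authors' deposited table gives a p-value for each array against the control pool, which no comparison used. In the authors' deposited table it was under 0.05 for 32, 39, 36 and 27 of the 79 genes on ligation arrays 1 to 4, against 0, 0, 0 and 1 on the control arrays. Of these, 29, 37, 34 and 25 genes lay below the control pool on the ligation arrays. The matching share of all probes below the pool is not given, and the share that follows counts both directions. Over all probes of the authors' deposited table the share was 31.2%, 34.1%, 34.8% and 28% on the ligation arrays, against 1.37%, 1.44%, 1.42% and 2.32% on the control arrays.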

How the results depend on the processing

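Quantile and scale normalization changed the main counts. Both give every array the same spread, and so enlarge the small control ratios and shrink the ligation ratios. Small control ratios follow from the use of a control pool as reference, so neither setting is neutral. Quantile normalization left 3324 probes lower and 3044 higher in all, and 9 lower and 9 higher of the 79 genes with a median of -0.0134. By family it left 5 large subunit, 1 small subunit, 1 TIM and 2 TOM genes lower. Scale normalization left 2989 probes lower and 2285 higher, and 7 lower and 6 higher genes with a median of 0.0011. By family it left 4, 1, 0 and 2 lower. Of the 60 genes that fell, quantile normalization kept 9 lower, turned 23 above 0 and called 3 of those higher, and scale normalization kept 7, turned 26 and called 2. Among named genes, changes of sign that involved a call were those of Mrps21 (0.14), Tomm20 (0.11), Tomm22 (0.0894), Timm9 (0.0704), Timm22 (0.0144) and Timm8b (0.0115) under quantile normalization. Under scale normalization they were those of Tomm20 (0.0577), Tomm22 (0.0306), Timm22 (0.0292), Timm8b (0.024), Timm9 (0.0085) and Timm23 (0.0045), and Tomm22 was at 0.17 in the sample channel alone.

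Shares over all genes are given only for the ratios as deposited and under quantile and scale normalization, so the counts below have none beside them. Loess within arrays gave 52 lower and 4 higher genes, with 4 TOM genes lower. The sample channel alone left 3 TOM genes lower, and the cause was not tested for either. Probes above the median intensity, fewer by construction, gave 4792 lower and 3787 higher in all, and 57 lower of 70 genes fitted. Leaving out 1 sample at a time gave 59 to 65 lower genes and 2 higher, with medians of -0.27 to -0.23. The counts of lower genes were 28 to 29, 16 to 20, 8 to 9 and 7 in the large subunit, small subunit, TIM and TOM families, and 6564 to 6940 lower and 5455 to 5790 higher over all probes. Mrps28 was lost without ligation replicate 3 or control replicate 4. The replicate number as a block gave 64 lower and 3 higher genes with a median of -0.25. Same-numbered samples had correlated deviations of 0.068 to 0.164, of which 1 was under 0.1, so the numbers were not taken as pairs, although all 4 ligation samples correlated best with their own number. Over the 28 named genes and all settings, 424 values kept their side of the threshold or stayed uncalled, 29 lost the call, 5 gained it and 13 changed sign where one of the settings made a call. A further 9 of the uncalled values changed sign, all of Mrpl10, Mrps17 or Mrps21, such as Mrpl10 at 0.032 and Mrps17 at -0.0013 with 1 sample left out. A planned search of protein sequences was not run.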
